A study of Danio rerio with 12 samples.

Results

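Genes of DNA replication and mitosis were followed through 12 libraries of sorted zebrafish cells, to ask which of the 4 sorted groups held transcripts of dividing cells. A list of 45 gene symbols was matched, ignoring case, to the symbols of the 32520 gene identifiers in the tables. For 42 of the symbols a match was found, and mcm6, rrm2 and tubb2b each matched 2 identifiers, which gave 45 identifiers in all. The symbols birc5a, hmgb2a and stmn1a had no match. The table instead carries BIRC5, HMGB2 and STMN1, which were kept apart because the file does not say which copy they are.

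All fish were adult carriers of a sox17:CreERT2 driver together with an mpeg1:loxP-DsRedx-loxP-GFP reporter. In these animals a tamoxifen-inducible Cre under the endoderm gene sox17 switches a cassette under mpeg1, a macrophage gene, from the red protein DsRedx to GFP. The groups were gill GFP, gill DsRedx, intestine GFP and intestine DsRedx, with n = 3 libraries each. The series description calls the GFP cells metaphocytes and the DsRedx cells macrophages. The color records an earlier Cre event and current mpeg1 activity, and the sources used here do not give the timing of tamoxifen. Each library was made by SMART-seq2, a full-length cDNA method, from a pool of 30 to 50 cells, so 1 library is the mean of few cells. Whether libraries came from different fish is not given either, so p-values measure the spread between these samples, which may be technical. In such pools fewer dividing cells and less RNA per dividing cell cannot be told apart.

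A dividing cell first copies its DNA and then separates the copies. Before S phase the MCM helicase is loaded on origins, and during S phase polymerases and their sliding clamp, supplied with deoxynucleotides, follow the opened helix. Cyclin-dependent kinases drive entry into mitosis, where Aurora and Polo kinases, kinesins and kinetochore proteins move the chromosomes, and the anaphase-promoting complex then destroys cyclins and securin. Many of these transcripts are made for a limited part of the cycle, which is why they serve as markers of dividing cells. The roles named below are those established for these conserved genes in yeast and vertebrate cells. Adult tissue macrophages divide at a low rate in many tissues, and gut epithelium is renewed from dividing cells at its base.

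Libraries held 5895669 to 12365233 counts and 9506 to 13278 genes with a count. The sorted identity was visible in marker lists. Of 25 identifiers for leukocyte and macrophage markers, 10 reached 10 TPM in a gill GFP library, 18 in gill DsRedx, 12 in intestine GFP and 21 in intestine DsRedx. TPM is a level per gene length, scaled to the same total in every library. Epithelial markers summed to between 11056.5 and 26891.6 TPM in the GFP libraries, against 434 to 1635 TPM in the DsRedx libraries. Leukocyte and macrophage markers summed to 28522 to 39929 TPM in gill GFP and 50896 to 87941 TPM in gill DsRedx. In the intestine they summed to 9101 to 12431 TPM in GFP and 33422 to 64428 TPM in DsRedx libraries. Of the 25 identifiers 19 had a count in gill GFP. Those at 0 counts there were the macrophage receptor csf1ra and several mfap4 identifiers.

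Transcripts of the 45 identifiers made up a small and uneven part of the libraries, from 0.00346 to 0.254% of the counts. Their summed level was 1827, 27.5 and 558 TPM in gill DsRedx libraries 1, 2 and 3. It was 635, 231 and 662 TPM in intestine DsRedx, 240.4, 469 and 217 TPM in gill GFP, and 79.7, 87.9 and 122 TPM in intestine GFP. All 3 intestine GFP libraries lay below every library of gill GFP and of intestine DsRedx. The gill DsRedx libraries held both the highest and the lowest sum of the 12, so that group overlapped all the others.

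As means over n = 3 libraries with SD, the sums were 804 ± 924 TPM in gill DsRedx, 509 ± 241 TPM in intestine DsRedx, 309 ± 139 TPM in gill GFP and 96.7 ± 22.6 TPM in intestine GFP. The order of gill DsRedx and gill GFP rested on 1 library. Gill DsRedx 1 alone held 75.7% of the sum of its group, and without it the gill DsRedx mean was 293 TPM, under that of gill GFP. No test was made on the sums, since the members were chosen as a list.

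**Figure D1:**
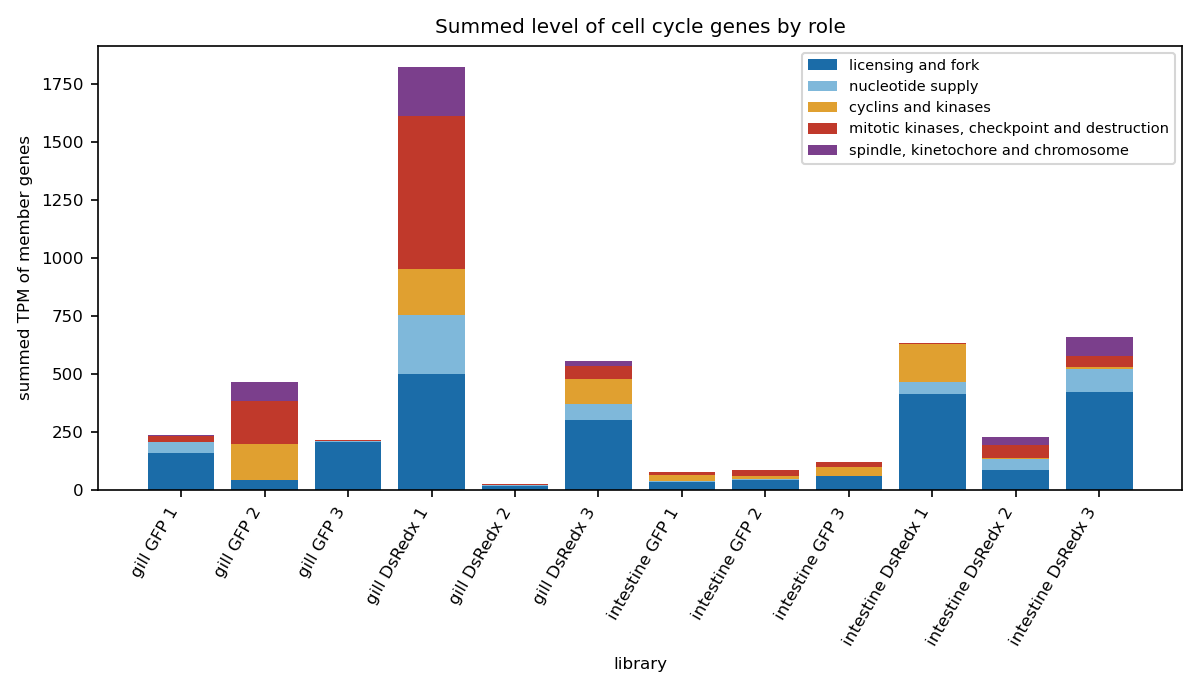
Bars give the summed TPM (y axis) of the member genes in each of the 12 libraries (x axis), stacked by role. Gill DsRedx 1 stands highest at 1827 TPM and gill DsRedx 2 lowest at 27.5 TPM, and the 3 intestine GFP libraries lie between 79.7 and 122 TPM.

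Libraries also differed in which roles made up the member sum. In gill GFP 2, genes of mitotic kinases, checkpoint, destruction, spindle and kinetochore held 56.9% of the member sum, and genes of replication and nucleotide supply 9.44%. Intestine DsRedx 1 showed the reverse, with 0.247% in the mitotic lists and 73.4% in the replication lists. Gill DsRedx 1 had both kinds, 47.6% mitotic and 41.5% replication. In gill GFP 3 the single gene pcna made 74.5% of the sum.

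Single genes were mostly confined to few libraries. Of the 45 identifiers 34 reached 10 TPM in some library, and 16 of these did so in exactly 1 library. Over all genes that reached 10 TPM, 26.3% did so in exactly 1 library, against 47.1% of the member identifiers that reached it. The number of members at 10 TPM or more was 20 in gill DsRedx 1, 1 in gill DsRedx 2 and 8 in gill DsRedx 3. It was 8, 8 and 9 in intestine DsRedx, 5, 10 and 2 in gill GFP, and 3, 2 and 5 in intestine GFP. The highest of the 12 values fell in gill DsRedx 1 for 14 identifiers, in intestine DsRedx 3 for 7 and in gill GFP 2 for 5. It fell in an intestine GFP library for 2, which were ccnb2 and cdc20.

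Counting any read as presence hides this pattern, because 22 to 31 members had at least 1 count in every library. There were 10 cases in which a member exceeded 1000 counts in some library of a tissue. In 8 of them the lowest other library of the same tissue stood under 1% of that highest value, and in none was it at 0. The median of these lowest levels was 0.252% of the highest library. In the other tissue the lowest library was at 0 in 4 of the 10 cases, with a median of 0.049% of that same value. For top2a, the 5 gill libraries other than gill DsRedx 1 lay between 0.206 and 0.783% of its level. The source of this low shared level was not tested, and fold changes against groups at that level are no measure of how low a gene was.

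**Figure D2:**
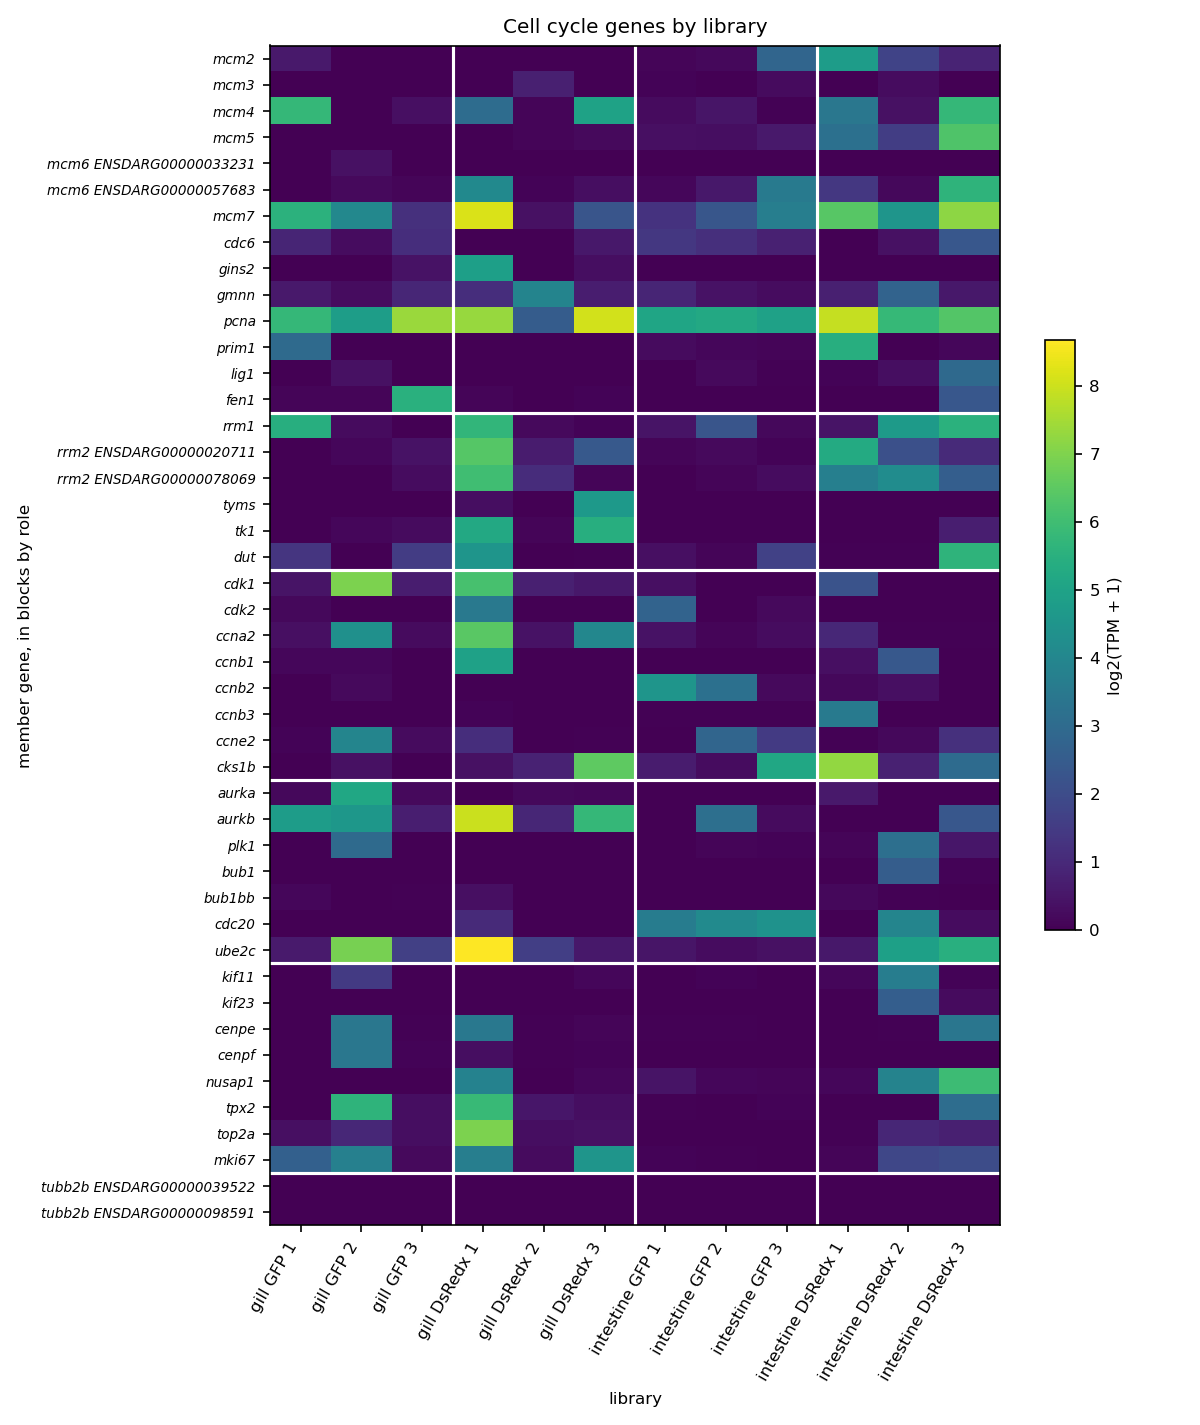
Color gives log2(TPM + 1) of each member identifier (rows, in blocks by role) in each library (columns, 3 per group). Bright cells cluster in gill DsRedx 1, with mitotic genes also in gill GFP 2 and replication genes in intestine DsRedx libraries, while cdc20 is the mitotic gene seen in all 3 intestine GFP libraries.

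Among genes of replication licensing and the fork, pcna was the most abundant and the most widely seen. It encodes the sliding clamp that holds DNA polymerases, and is also used in DNA repair. It was read at 54.1, 27.1 and 162 TPM in gill GFP, 158, 4.69 and 267 TPM in gill DsRedx, 32.9, 36.9 and 30.4 TPM in intestine GFP and 241, 55.4 and 81.0 TPM in intestine DsRedx. It reached 10 TPM in 11 libraries, and each intestine DsRedx library lay above the intestine GFP libraries. By edgeR's quasi-likelihood test the intestinal difference was -2.29 on the log2 scale (SE 1.26), at a Benjamini-Hochberg adjusted p of 0.277. In the gill the libraries overlapped (log2 difference -1.14, SE 1.21, adjusted p = 0.577).

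Genes of the MCM subunits peaked in different libraries. The helicase subunit gene mcm7 was at 46.1, 15.5 and 1.32 TPM in gill GFP, 290 (289.6), 0.301 and 3.91 TPM in gill DsRedx, 1.40, 3.96 and 12.2 TPM in intestine GFP and 83.8, 22.0 and 145 TPM in intestine DsRedx. Again all intestine DsRedx libraries exceeded all intestine GFP libraries, with a log2 difference of -4.16 (SE 1.81, adjusted p = 0.174). Its partner mcm5 was at 8.19, 1.97 and 76.8 TPM in intestine DsRedx and at most 0.490 TPM in any other library. The gene mcm4 was high in 3 libraries of 3 different groups, gill GFP 1 (53.7 TPM), gill DsRedx 3 (30.6 TPM) and intestine DsRedx 3 (54.3 TPM). For mcm2 the highest value was 26.7 TPM, in intestine DsRedx 1, and the next 6.13 TPM, in intestine GFP 3. The gene mcm3 stayed at or below 0.688 TPM everywhere. Of the mcm6 identifiers, ENSDARG00000057683 reached 49.1 TPM in intestine DsRedx 3, and ENSDARG00000033231 had reads in gill GFP 2 alone (0.324 TPM).

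Other fork genes were each seen in 1 library above all others. The CMG helicase component gins2 was at 28.4 TPM in gill DsRedx 1, the primase subunit prim1 at 42.0 TPM in intestine DsRedx 1, and the flap endonuclease fen1 at 43.9 TPM in gill GFP 3. The next highest values of these genes were 0.328, 6.94 and 4.07 TPM. The ligase gene lig1 reached 6.87 TPM, in intestine DsRedx 3, and the MCM loader cdc6 4.13 TPM, in the same library. Geminin, gmnn, which blocks a further round of licensing, was the 1 member above 10 TPM in gill DsRedx 2, at 13.9 TPM.

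Nucleotide supply genes were low in intestine GFP, where the 6 identifiers together summed to 0.736, 4.22 and 2.61 TPM. In intestine DsRedx they summed to 51.4, 46.1 and 101.2 TPM. In the gill the sums were 43.7, 0.407 and 2.68 TPM in GFP and 256, 1.97 and 71.4 TPM in DsRedx libraries. Gill GFP 2 and 3 and gill DsRedx 2 thus also lay below the 4.22 TPM of intestine GFP 2. The small subunit of ribonucleotide reductase, rrm2 (ENSDARG00000020711), was at 83.2, 0.573 and 4.34 TPM in gill DsRedx against 0, 0.114 and 0.343 TPM in gill GFP, and at 38.7, 3.30 and 1.06 TPM in intestine DsRedx against 0.0739, 0.172 and 0.0582 TPM in intestine GFP. The groups did not overlap in either tissue, yet only gill DsRedx 1 and intestine DsRedx 1 exceeded 10 TPM. In the gill the closest libraries held 6 counts (gill DsRedx 2) and 3 counts (gill GFP 3) of this identifier, within counting error. Its adjusted p, 0.0953 in gill and 0.124 in intestine by edgeR, was the lowest of any member in both reporter comparisons. The second rrm2 identifier, ENSDARG00000078069, was at 63.1, 1.16 and 0.0874 TPM in gill DsRedx and at 12.3, 17.4 and 4.99 TPM in intestine DsRedx. No GFP library exceeded 0.235 TPM of it. In the gill the colors overlapped, since gill DsRedx 3 lay below gill GFP 3 (0.230 TPM). The sources used here do not say how reads were shared between identifiers of 1 symbol, so their split is uncertain.

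The large subunit gene rrm1 overlapped between the colors of both tissues, at 42.2, 0.191 and 0 TPM in gill GFP, 50.7, 0.160 and 0.0725 TPM in gill DsRedx, 0.371, 3.87 and 0.146 TPM in intestine GFP and 0.374, 25.4 and 45.5 TPM in intestine DsRedx. The thymidine genes were seen in the gill. Thymidine kinase tk1 was at 36.8 and 41.9 TPM in gill DsRedx 1 and 3 and thymidylate synthase tyms at 24.9 TPM in gill DsRedx 3, and neither exceeded 0.649 TPM in the intestine. The dUTPase gene dut, which keeps uracil out of DNA, was at 22.2 TPM in gill DsRedx 1 and 49.1 TPM in intestine DsRedx 3, with at most 2.18 TPM elsewhere.

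Among cyclins and their kinases, the mitotic kinase cdk1 stood out in 1 library of each gill color. Its level was 0.363, 123 and 0.614 TPM in gill GFP and 70.2, 0.684 and 0.466 TPM in gill DsRedx. It was at most 0.265 TPM in intestine GFP, and intestine DsRedx 1 held 3.68 TPM with 0 counts in the other two. Cyclin A2, ccna2, which acts in S phase and G2, was high with cdk1 in gill GFP 2 (19.5 TPM) and gill DsRedx 1 (86.2 TPM). It was also at 15.1 TPM in gill DsRedx 3, where cdk1 was at 0.466 TPM. In the intestine ccna2 was at most at 0.958 TPM. The log2 difference of ccna2 between gill and intestine DsRedx cells was 6.65 (SE 2.38, adjusted p = 0.156).

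The B-type cyclins, partners of cdk1, were seen in different libraries. The gene ccnb1 was at 30.2 TPM in gill DsRedx 1 and 4.18 TPM in intestine DsRedx 2, and at most 0.278 TPM elsewhere. In contrast ccnb2 was at 21.9, 8.09 and 0.169 TPM in intestine GFP and at most 0.266 TPM in every other library, and ccnb3 was seen at 10.7 TPM in intestine DsRedx 1. The cyclin E gene ccne2, of the G1 to S transition, reached 14.3 TPM in gill GFP 2 and 6.11 TPM in intestine GFP 2. The kinase subunit cks1b was at 152 TPM in intestine DsRedx 1, 91.3 TPM in gill DsRedx 3 and 34.8 TPM in intestine GFP 3, and at most 7.14 TPM in the other 9 libraries. The S-phase kinase cdk2 was highest in gill DsRedx 1, at 10.5 TPM, and next in intestine GFP 1, at 5.83 TPM.

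Among genes of cyclin destruction and mitotic control, the ubiquitin-conjugating enzyme gene ube2c, which serves the anaphase-promoting complex, was at 0.536, 118 and 2.11 TPM in gill GFP, 405, 2.02 and 0.459 TPM in gill DsRedx, 0.391, 0.227 and 0.308 TPM in intestine GFP and 0.472, 29.6 and 43.4 TPM in intestine DsRedx. It was therefore high in 4 libraries, and in no library of intestine GFP. In intestine its log2 difference was -6.49 (SE 2.64, adjusted p = 0.160), in gill -2.12 (SE 2.15, adjusted p = 0.557). Aurora B, aurkb, the kinase of the chromosomal passenger complex, was highest in the gill. It was at 26.5, 23.1 and 0.664 TPM in gill GFP and 249, 0.889 and 53.3 TPM in gill DsRedx, against at most 7.88 TPM in any intestinal library.

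Like the B-type cyclin gene ccnb2, the gene cdc20 had its highest value in an intestine GFP library. It encodes an activator of the anaphase-promoting complex. It was at 11.3, 16.7 and 20.4 TPM in intestine GFP, from 163, 207 and 373 counts, and at 0, 14.3 and 0.229 TPM in intestine DsRedx. It had 0 counts in all gill GFP libraries and 1.02 TPM in gill DsRedx 1 alone. A count of 0 allows up to 3 counts, or 0.243 to 0.509 CPM (a level per total reads) depending on the library, and covers counting error only. Between GFP cells of the tissues, cdc20 reached an adjusted p of 0.133, with no overlap of libraries.

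Further checkpoint and pole kinases were rare. Aurora A, aurka, of the spindle poles, was at 34.9 TPM in gill GFP 2 and at most 0.499 TPM elsewhere. The Polo kinase plk1 was at 7.05 TPM in gill GFP 2 and 7.97 TPM in intestine DsRedx 2. The spindle checkpoint gene bub1 reached 4.84 TPM in intestine DsRedx 2, and bub1bb stayed at or below 0.292 TPM.

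Spindle, kinetochore and chromosome genes were mostly seen in gill GFP 2, gill DsRedx 1 and intestine DsRedx 2 and 3. Topoisomerase II alpha, top2a, which untangles sister chromatids, was at 122 TPM in gill DsRedx 1, from 2297 counts. The next highest library was gill GFP 2 at 0.959 TPM, and intestine GFP had 0 counts. The log2 difference in gill was -6.74 (SE 2.36, adjusted p = 0.104) and changed sign without gill DsRedx 1. The spindle assembly factor tpx2 was at 49.0 TPM in gill GFP 2, 56.4 TPM in gill DsRedx 1 and 7.64 TPM in intestine DsRedx 3, with at most 0.433 TPM in the other 9 libraries.

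The proliferation marker mki67, a coat protein of mitotic chromosomes, was at 5.30, 12.7 and 0.171 TPM in gill GFP and 12.1, 0.200 and 22.0 TPM in gill DsRedx. In intestine DsRedx it was at 0.0802, 2.63 and 3.06 TPM, and in intestine GFP at 0.0663, 0.0257 and 0 TPM, from 3, 1 and 0 counts. Both gill colors thus held mki67 above 5 TPM in 2 of 3 libraries, and intestine DsRedx held it between those libraries and intestine GFP in 2 of 3. Its adjusted p was 0.146 for the intestinal colors, 0.698 for the gill colors and 0.117 for gill against intestine GFP cells.

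The microtubule-binding gene nusap1 was at 59.7 and 13.7 TPM in intestine DsRedx 3 and 2 and 13.2 TPM in gill DsRedx 1, and had 0 counts in gill GFP. The kinesin genes kif11, which pushes spindle poles apart, and kif23, of the midbody, were highest in intestine DsRedx 2, at 11.6 and 5.08 TPM. The kinetochore motor gene cenpe was at 9.84 TPM in gill GFP 2, 10.2 TPM in gill DsRedx 1 and 9.57 TPM in intestine DsRedx 3, and cenpf at 9.70 TPM in gill GFP 2. Both tubb2b identifiers, of a tubulin gene used mainly by neurons, had 0 counts in all 12 libraries.

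Of the unsuffixed symbols, STMN1 (ENSDARG00000004169), a microtubule destabilizer, was at 23.5 TPM in gill GFP 1, 33.4 and 27.4 TPM in gill DsRedx 1 and 3 and 25.2 TPM in intestine DsRedx 3, and at most 3.46 TPM elsewhere. The second STMN1 identifier, ENSDARG00000033655, was read in intestine GFP 2 alone, at 8.84 TPM. BIRC5, survivin of the passenger complex, was at 19.5 TPM in gill DsRedx 3, 16.2 TPM in intestine DsRedx 3, 7.83 TPM in gill DsRedx 1, 6.9975 TPM in intestine GFP 2 and 6.08 TPM in gill GFP 3. The chromatin gene HMGB2 had 0 counts in all 6 gill libraries and at most 5.95 TPM in the intestine.

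Of the 45 identifiers 24 passed the filter on low counts and were tested among 10666 genes, and 21 did not. Calls rest on edgeR's p, adjusted by Benjamini-Hochberg over these genes, falling under 0.05. For gill GFP against gill DsRedx, 0 of 24 were called, where 4.59% of all tested genes were (2.29% higher and 2.31% lower in GFP). For intestine GFP against intestine DsRedx it was 0 of 24, where 4.12% of genes were called (2.09% higher and 2.03% lower). The same count of 0 held for gill against intestine in GFP cells (2.03% of genes called, 0.703% higher and 1.33% lower in gill). It held for the tissues in DsRedx cells (0.759%, with 0.225% higher and 0.534% lower) and for the difference of the reporter effects (0.15%, with 0.0563% higher and 0.0938% lower). With 24 genes tested, shares of this size amount to about a single call or fewer.

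At an unadjusted p under 0.05, 6 of 24 members passed for the gill colors, against 29.9% of all tested genes. For the intestinal colors 10 passed, against 24.1% of genes, for the tissues in GFP cells 9 (15.8%), for the tissues in DsRedx cells 5 (21.1%), and for the difference of the reporter effects 0 (14.1%). DESeq2, which called more genes in all comparisons, called 4 members for the gill colors (24.4% of genes) and 8 for the intestinal colors (17.6%). It called 6 between the tissues in GFP cells (10.4%), 4 in DsRedx cells (15.1%) and 0 for the difference (7.76%). All 8 members called by DESeq2 in the intestine were lower in GFP cells, namely mcm4, mcm5, mcm7, both rrm2 identifiers, mki67, nusap1 and ube2c. Over all genes it called 771 of 10666 lower and 1105 higher there. Of the 8, mcm5, nusap1 and both rrm2 identifiers passed the low-count filter through DsRedx libraries alone. The gene ube2c passed through gill GFP 2, gill DsRedx 1 and intestine DsRedx 2 and 3, with at most 2 counts in any intestine GFP library. The direction of all these genes was thus largely fixed by the filter, and no support can be drawn from it.

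The median log2 difference of the 24 tested members was -2.73 between the gill colors, where that of all tested genes was 0. It was -4.29 between the intestinal colors (0.08 over all genes), 1.19 between the tissues in GFP cells (-0.22) and 0.20 between the tissues in DsRedx cells (-0.16). These medians describe members that passed the filter, often through 1 high library, and are no test.

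Without a filter, groups were compared by whether their 3 libraries overlapped, over genes with any count, of which 43 were members. In the intestine 9 member identifiers (20.9%) lay lower in every GFP library than in any DsRedx library, where 5.22% of 19843 genes did, and 0 lay higher, where 13.5% did. They were mcm5, mcm7, pcna, both rrm2 identifiers, plk1, ube2c, top2a and mki67. For plk1, ube2c, top2a and mki67 the lowest DsRedx library held only 1, 2, 1 and 3 counts, so these 4 separated within counting error. With each DsRedx library above 3 counts, mcm5, mcm7, pcna and both rrm2 identifiers were left, 5 members (11.6%), where 4.3% of genes lay lower and 11.7% higher. In the gill 2 members (4.65%) lay lower in GFP, rrm2 and cks1b, where 3.54% of genes did, and aurka (2.33%) higher, where 8.73% did. The aurka separation was 1 count in gill GFP 1 and 3 against 1 count in gill DsRedx 2 and 3, and cks1b separated through 1 count in gill DsRedx 1. Above 3 counts the gill comparison left rrm2 (ENSDARG00000020711) lower (2.77% of genes) and 0 members higher (6.74%). That separation was 6 counts in gill DsRedx 2 against 3 counts in gill GFP 3, also within counting error. Among GFP cells 7 members lay higher in gill than in intestine (16.3%, against 6.01% of genes), namely fen1, cdk1, aurka, ube2c, cenpf, top2a and mki67. There 5 lay lower (11.6%, against 12.8%). Above 3 counts top2a and mki67 were left higher (4.65%, against 4.22%) and cdc20 lower (2.33%, against 9.49%). The gill GFP libraries held 6, 19 and 5 counts of top2a, within its low shared level of the gill given above. For mki67 the closest libraries held 5 counts (gill GFP 3) and 3 counts (intestine GFP 1). Among DsRedx cells 1 lay higher in gill (2.33%, against 4.16%) and 4 lower (9.3%, against 8.78%). Above 3 counts these became 0 higher (2.07% of genes) and 2 lower, mcm2 and mcm5 (4.65%, against 4.75%). In the intestine the number of detected genes was higher in GFP libraries, at 12802 to 13278 against 11312 to 11767 in DsRedx libraries, and its part in these counts was not tested.

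**Figure D3:**
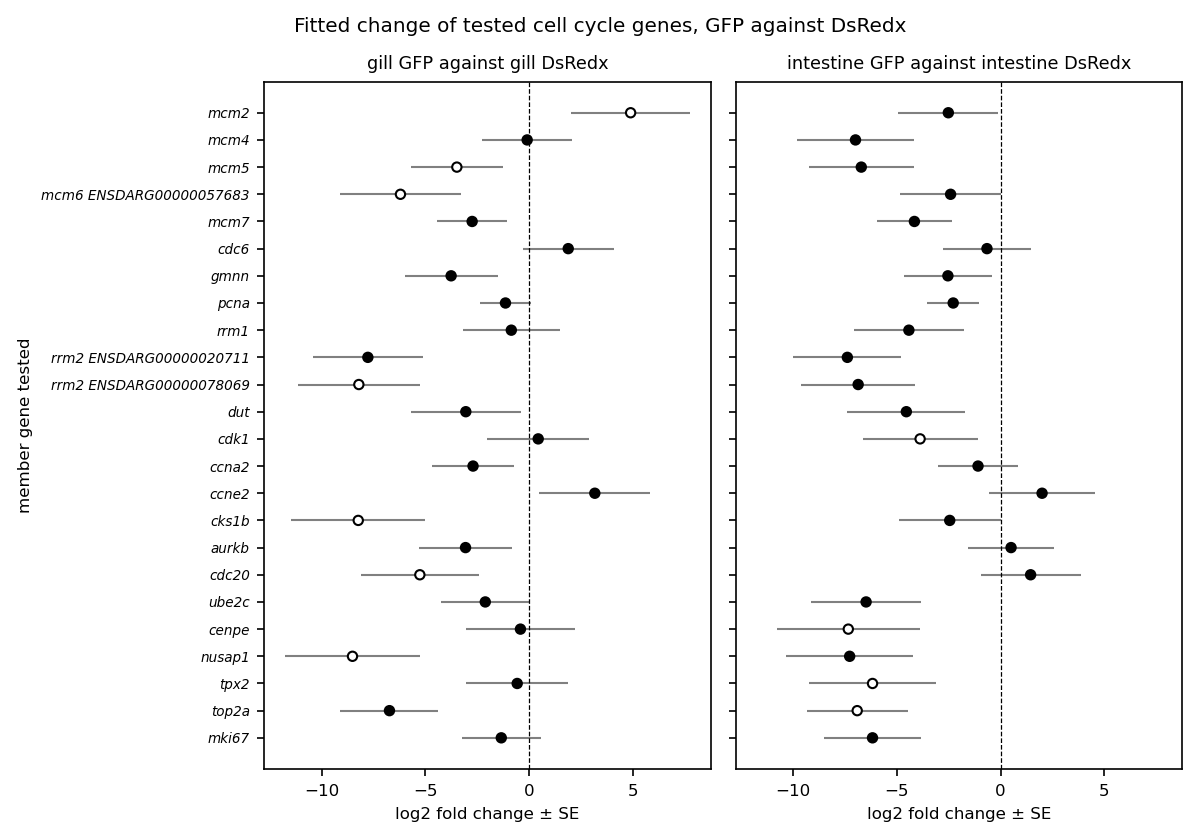
Points give the fitted log2 fold change of GFP against DsRedx with its SE (x axis) for the 24 tested members (y axis), in gill (left) and intestine (right). Open points are genes with 3 counts or fewer in total over the libraries of 1 of the groups, 7 in gill and 4 in intestine. Their fold depends on the fit's prior. Some filled points lie just above that limit, such as rrm2 (ENSDARG00000020711) with 4 counts in the GFP group of each tissue. The SEs are wide, and 0 members passed the adjusted threshold.

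Genes of the same processes outside the 45 were read beside them. Of 53 matched identifiers for other replication genes (helicase loaders, polymerases, clamp loaders and chromatin assembly) 22 were tested and 0 were called in any of the 5 comparisons by edgeR, with 8, 3, 7, 8 and 5 at an unadjusted p under 0.05, and DESeq2 called 7, 3, 4, 7 and 5. Over all tested genes the shares, in the same order, were 29.9, 24.1, 15.8, 21.1 and 14.1% at that p and 24.4, 17.6, 10.4, 15.1 and 7.76% by DESeq2. Their sum was highest in gill DsRedx 1 (1157 TPM) and intestine DsRedx 3 (792 TPM), and lowest in gill GFP 3 (37.0 TPM). The single-strand DNA binding subunits rpa1 and rpa2 had the highest mean CPM of the list. In intestine GFP rpa1 was at 4.34, 9.46 and 6.65 TPM and rpa2 at 43.0, 45.3 and 12.43 TPM, while intestine DsRedx held 63.6, 10.5 and 174 TPM of rpa1 and 77.0, 34.1 and 9.21 TPM of rpa2. The intestine GFP sum of this list, 222, 164 and 332 TPM, overlapped that of intestine DsRedx (520, 207 and 792 TPM), unlike the sum of the 45. Of the 53 identifiers, 10, 5 and 13 reached 10 TPM in the intestine GFP libraries and 8, 7 and 12 in intestine DsRedx. In the gill it was 7, 6 and 1 in GFP and 11, 1 and 6 in DsRedx libraries. Intestine GFP 3 thus held the most of any library.

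Of 67 identifiers for other mitosis genes 19 were tested. Their sum was 1115, 38.6 and 478 TPM in gill DsRedx and 113, 269 and 133 TPM in gill GFP, against 61.3, 64.0 and 88.6 TPM in intestine GFP and 47.5, 184 and 361 TPM in intestine DsRedx. The highest gill GFP library was again library 2. The list had 1 call by edgeR, in the intestine, where 2.03% of all tested genes were lower in GFP. At an unadjusted p under 0.05 it had 5, 6, 3, 3 and 2 genes in the order of the 5 comparisons, and DESeq2 called 5, 6, 2, 2 and 1. The shares of all genes are those given with the replication list. The phosphatase gene cdc25b, which activates cdk1, was lower in intestine GFP cells, at 0.397, 0.790 and 0.849 TPM against 11.2, 40.3 and 123 TPM in intestine DsRedx (log2 difference -6.75, SE 1.75, edgeR adjusted p = 0.0313). The GFP values were 0.682 to 1.46% of the DsRedx mean, near the low shared level above. That level was taken against the single highest library, so the scales differ. Dropping single libraries kept the call in 7 of 12 fits. It was lost without intestine GFP 1 (adjusted p = 0.196), 2 (0.170) or 3 (0.146) and without intestine DsRedx 2 (0.0630) or 3 (0.170). In the gill cdc25b was at 0.6997, 7.36 and 10.3 TPM in GFP and 39.0, 23.2 and 11.9 TPM in DsRedx cells (adjusted p = 0.267), and the difference between the reporter effects of the tissues had an adjusted p of 0.335.

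Of 18 tested G1 cyclins and growth-phase regulators, 1 was called by edgeR, in the gill, where 2.29% of all tested genes were higher in GFP. In the order of the 5 comparisons, 7, 3, 2, 5 and 4 had an unadjusted p under 0.05, and DESeq2 called 6, 2, 1, 6 and 5. The shares of all genes are again those given with the replication list. Cyclin D1, ccnd1, which links growth signals to the start of the cycle, was higher in gill GFP cells, at 11.1, 22.2 and 57.3 TPM against 0.134, 0.318 and 0.128 TPM in gill DsRedx (log2 difference 6.86, SE 1.59, edgeR adjusted p = 0.0163). The DsRedx values were 0.425 to 1.05% of the GFP mean, and dropping single libraries kept the call in 9 of 12 fits. It was lost without gill GFP 3 (adjusted p = 0.0883) and without gill DsRedx 1 (0.0511) or 3 (0.0613). In the intestine ccnd1 was at 29.2, 9.96 and 43.7 TPM in GFP and 5.98, 2.34 and 8.38 TPM in DsRedx cells, which did not overlap (log2 difference 1.99, adjusted p = 0.378; adjusted p of the difference between tissues = 0.248).

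Among 20 tested cell cycle inhibitors and antiproliferative genes, plk3 was higher and btg1 lower in gill GFP cells, and sesn2 was called higher in intestine GFP cells. Over all tested genes 2.29% were higher and 2.31% lower in the gill, and 2.09% higher in the intestine. At an unadjusted p under 0.05, 11 of the 20 passed for the gill colors, against 29.9% of all tested genes. For the other 4 comparisons it was 4, 2, 4 and 3, against 24.1, 15.8, 21.1 and 14.1%. DESeq2 called 7, 3, 1, 2 and 0, against 24.4, 17.6, 10.4, 15.1 and 7.76%. The stress-responsive Polo-like kinase plk3 was at 814, 741 and 1157 TPM in gill GFP and 57.3, 147 and 31.7 TPM in gill DsRedx (8.18-fold, adjusted p = 0.0219). The call was lost without gill GFP 3 (0.0912) and without gill DsRedx 1 (0.0655) or 3 (0.0811). In the intestine its colors overlapped (adjusted p = 0.475), and the difference between tissues had an adjusted p of 0.128. The antiproliferative gene btg1 was at 538, 442 and 352 TPM in gill GFP against 1198, 1023 and 1072 TPM in gill DsRedx (3.44-fold lower, adjusted p = 0.0333). This call was lost on leaving out any 1 library of gill GFP, gill DsRedx or intestine GFP (adjusted p from 0.0550 to 0.113), and kept without any 1 of intestine DsRedx. Sestrin 2, sesn2, a stress gene that restrains growth signaling, was at 145, 65.5 and 44.0 TPM in intestine GFP against 0.598, 0.409 and 1.18 TPM in DsRedx (adjusted p = 0.035). The DsRedx values of sesn2 were 0.482 to 1.39% of the GFP mean, and its call was kept only on leaving out a library of gill DsRedx, with an adjusted p from 0.0519 to 0.190 on leaving out any other. In the gill sesn2 was at 61.1, 48.8 and 126.9 TPM in GFP against 10.4, 0.426 and 1.06 TPM in DsRedx cells, which did not overlap (log2 difference 3.97, SE 1.52, adjusted p = 0.116; DESeq2 adjusted p = 0.00883). The difference between tissues had an adjusted p of 0.615 for sesn2. The sum of the inhibitor list was 1417 to 3269 TPM over the 12 libraries and overlapped between all groups.

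**Figure D4:**
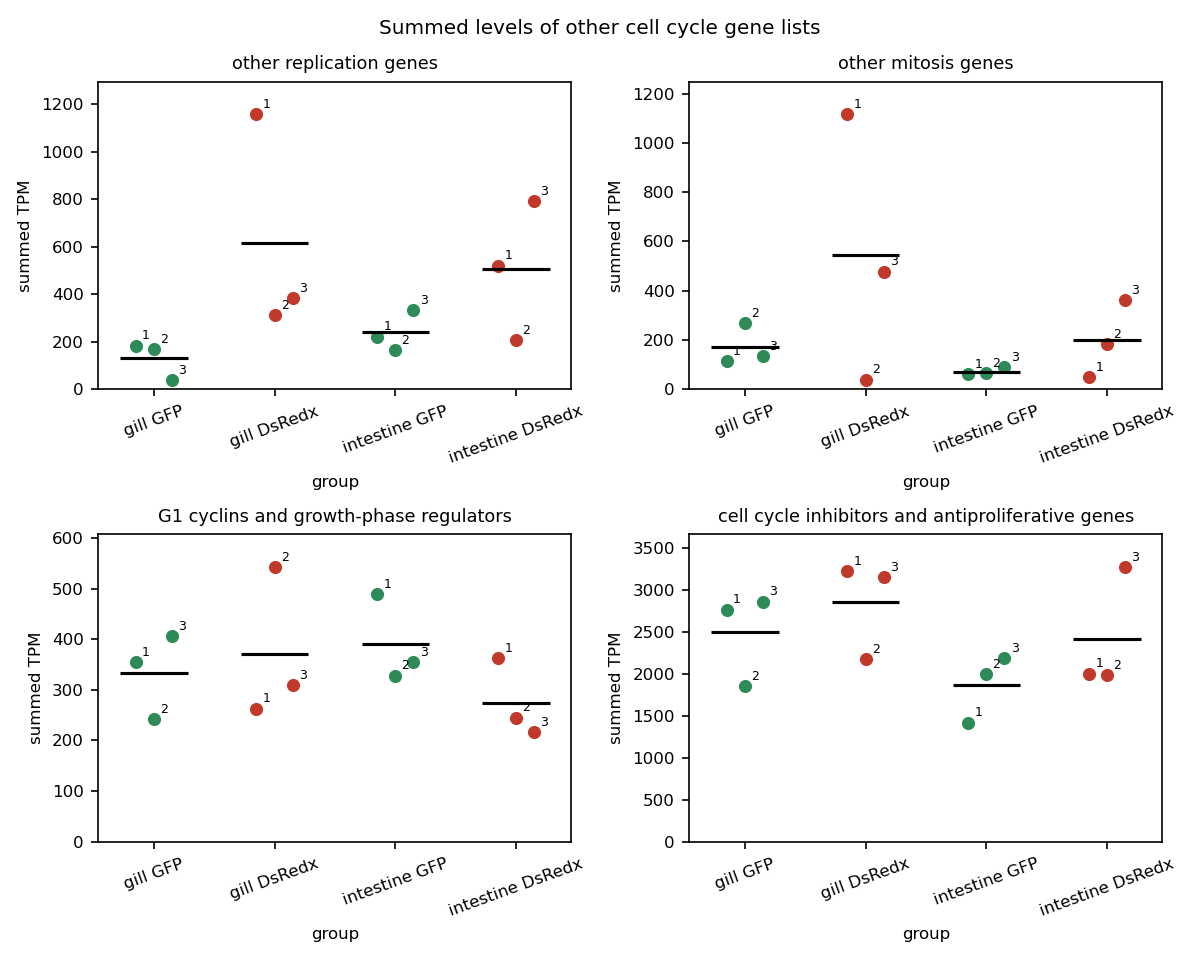
Points give the summed TPM (y axis) of 4 further gene lists in each library, numbered by replicate, for the 4 groups (x axis), green for GFP and red for DsRedx, and lines give the group means. Gill DsRedx 1 is highest for other replication genes (1157 TPM) and other mitosis genes (1115 TPM), and the inhibitor sums overlap between groups.

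Markers of other cell types were read beside these values, and whether such cells divided was not tested. Of 14 T and NK cell identifiers 6 had a count in intestine DsRedx, where they summed to 32.7, 93.8 and 181 TPM, and 4 in intestine GFP, where they summed to 0.516, 6.57 and 0.995 TPM. In gill DsRedx they summed to 1.11, 24.7 and 259 TPM (6 of 14 with a count) and in gill GFP to 28.4, 7.43 and 5.07 TPM (6 of 14). The defining genes zap70 and il2rb had 0 counts in every group, and lck had 0 in both intestinal groups. Other genes of the list had counts, namely cd247, cd4-1, cd8a, tox, tcf7 and nkl.3 in intestine DsRedx. In gill DsRedx they were lck, cd4-1, cd8a, il2rga, tox and itk. The listed symbols cd3e, trac and trdc had no match and were not read. In intestine DsRedx 3 of the 14 reached 10 TPM in a library, in gill DsRedx 4, in gill GFP 1 and in intestine GFP 0. Of 7 B cell identifiers 4 had a count in intestine DsRedx (60.7, 58.4 and 10.1 TPM) and 3 in intestine GFP (0.182, 2.79 and 0.550 TPM). In gill DsRedx 6 had a count (42.2, 0.662 and 81.1 TPM) and in gill GFP 4 (32.9, 0 and 0.966 TPM). The gene pax5 was at 0 throughout, while cd79a, cd37, ighm and cd22 had counts in intestine DsRedx. In the intestine both lists were therefore higher in the DsRedx libraries, with the member sum, and their part in it was not tested. In gill DsRedx both lists were highest in library 3, and the B cell list was lowest in library 2, the library of lowest member sum. The T and NK cell list was lowest in library 1 (1.11 TPM), the library of highest member sum.

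The 7 identifiers listed for neutrophils summed to 143, 172 and 198 TPM in gill GFP, 36.1, 28.6 and 155 TPM in gill DsRedx, 224, 121 and 55.7 TPM in intestine GFP and 41.8, 192 and 18.3 TPM in intestine DsRedx, with lyz and mmp13a at 0. One of the 7, myb, also stands in the list of G1 and growth-phase regulators. Of the 4 tested, 1 was called higher and 1 lower in GFP cells of each tissue, where 2.03 to 2.31% of all tested genes were called per direction. The sum is therefore no measure of neutrophils. The 6 stem and progenitor identifiers summed to 50.4 to 107 TPM in gill GFP and 39.9 to 56.0 TPM in intestine GFP, against at most 0.956 TPM in gill DsRedx and 0.690, 12.3 and 68.7 TPM in intestine DsRedx. In gill GFP 4 of the 6 had 0 counts, gata2b and smoc2 had 0 in all groups, and the sum was almost wholly that of runx1, a hematopoietic transcription factor gene also used by mature blood cells. In gill GFP runx1 alone was at 66.3, 50.4 and 106 TPM, against 0.266, 0.738 and 0.956 TPM in gill DsRedx (edgeR adjusted p = 0.0473), a call kept in 1 of 12 fits, that without intestine DsRedx 1, with an adjusted p from 0.0502 to 0.132 in the other 11. It was the single identifier of its list that was tested, and only 6 of the 14 listed symbols had a match. The symbols kita, lgr5, ascl2 and olfm4 were among those without a match. All 5 erythroid identifiers had 0 counts in every library.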

How the data were processed

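RNA of 12 pools of sorted cells was measured. The authors deposited raw counts per Ensembl gene, per the values whole numbers of differing totals, and a table of TPM deposited by the authors, each column with the same sum. STAR, featureCounts and the build danRer11 are named per the submitters' processing notes. The sources used here give no versions, annotation release, strand setting, duplicate removal or rule for reads that match several paralogs. Symbols came from a supplied table that named 29201 of the 32520 identifiers. Members and lists were chosen with earlier results of these data known.

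Counts were tested with edgeR 4.0.16 (filterByExpr defaults over 4 groups, TMM, quasi-likelihood F test, all 12 libraries, 1 mean per group), adjusted by Benjamini-Hochberg over 10666 genes and called under 0.05. An SE is the log2 difference divided by the square root of F. The script was tested on simulated data of less spread than these. That test therefore does not measure how many changes could be found here. The common biological coefficient of variation was 1.42. Levels are the deposited TPM. Named were called genes, the 3 members of highest mean TPM per role, mki67, top2a, cdk1, ccnb1, pcna and rrm2, with the remaining members given by their highest values. From the other lists up to 6 called genes were named, or the 2 of highest mean CPM. Alternatives were RLE scaling, no filter, 10 CPM in 3 libraries, DESeq2 1.42.0, a replicate block, the number of detected genes as covariate, and each library left out.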

Additional observations from a re-analysis of the deposited data

How the results depend on the processing

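The count of 0 members called by edgeR held in all 5 comparisons with RLE scaling, the 10 CPM filter, and each of the 12 libraries left out (0 to 0). It also held with the replicate block, which gave 347, 385, 218, 75 and 23 genes called in all in the order of the report; deviations of same-numbered libraries correlated at -0.0319 to 0.0399, so the numbers did not pair them, and the block ended the calls of cdc25b (adjusted p = 0.0605), sesn2 (0.0559) and runx1 (0.0684). With no filter 1 member, top2a, passed for the gill colors and 1, the same gene, for the intestinal colors. With the number of detected genes as covariate 1, rrm1, passed for the intestinal colors. DESeq2 called 4, 8, 6, 4 and 0 members. The cause of these differences was not tested.

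Over all genes 490, 439, 217, 81 and 16 were called. DESeq2 called 2601, 1876, 1112, 1609 and 828, and the detected-gene covariate left 244, 132, 18, 3 and 2. RLE scaling gave 49 for the tissues in DsRedx cells and 9 for the difference of the reporter effects, and no filter 267 and 107. With 1 library left out the ranges were 231 to 492, 181 to 543, 96 to 273, 35 to 83 and 1 to 17. The low-count filter was applied anew in each of these fits, which tested 11924 to 12527 genes in place of 10666, so the missing library and the larger gene set cannot be told apart. Counts fell by over 1.5 times in the fits without any GFP library or gill DsRedx 3 (gill colors), any intestinal library (intestinal colors), any GFP library (tissues in GFP cells), gill DsRedx 1 or 2 or any intestinal library (tissues in DsRedx cells), and any GFP library or intestine DsRedx 1 or 2 (difference).

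Without 1 library the mean member sum ran from 293 to 1193 TPM in gill DsRedx, 229 to 355 TPM in gill GFP, 433 to 648 TPM in intestine DsRedx and 83.8 to 105 TPM in intestine GFP. Without pcna the intestine GFP mean fell to 63.3 TPM. Adding BIRC5, HMGB2 and STMN1, chosen after seeing the data, or leaving out tubb2b moved no mean by more than its SD. The mean number of members with a count (24.3, 27, 26.7 and 30 in gill GFP, gill DsRedx, intestine GFP and intestine DsRedx) ran from 23 to 25.5, 25.5 to 29.5, 26.5 to 27 and 29.5 to 30.5 with 1 library left out. It became 5.67, 9.67, 3.33 and 8.33 at 10 TPM, and 12, 14.3, 12 and 23.7 above 2% of the highest library of the tissue. The sign of cdk1 between the tissues in GFP cells reversed with the detected-gene covariate (adjusted p = 1), and that of top2a between the gill colors without gill DsRedx 1 (adjusted p = 1; from 0.0599 over the other libraries left out). Asking that each library of the higher group exceed 3 counts, chosen after seeing the data, cut the non-overlapping members from 9 to 5 (lower in intestine GFP), 7 to 2 and 5 to 1 (higher and lower in gill GFP than in intestine GFP), 4 to 2 and 1 to 0 (lower and higher in gill DsRedx than in intestine DsRedx), and 2 to 1 and 1 to 0 (lower and higher in gill GFP than in gill DsRedx). Pools of 30 to 50 cells and 3 libraries per group limit what could be called.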
